A study of Homo sapiens with 32 samples.

Results

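The genes of the machinery that starts RNA polymerase II transcription were followed in cells leaving mitosis. They are 78 of the 24215 genes with a symbol in the table, and were chosen by symbol alone, with no measured value in the rule. The rule took the polymerase II subunits POLR2A to POLR2L with their copies (14 genes), the general factors TFIIA, TFIIB, TFIIE, TFIIF and TFIIH (15 genes named GTF2), TBP and the TAF genes of TFIID (19 genes), and the MED genes of Mediator (30 genes). All 78 passed the filter of at least 1 FPKM (fragments per kilobase of transcript, scaled to the size of the library) in at least 3 groups, as did 22913 genes in all, of which 17594 were protein-coding.

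New RNA was captured from HUH7, an established human hepatoma line, during a 40 minute pulse of 5-ethynyl uridine, a uridine analogue by which freshly made transcripts can be captured. Cells were synchronised with thymidine, arrested in mitosis with the spindle poison nocodazole, shaken off, washed and replated, and were labelled at 0, 40, 80, 105, 165 or 300 minutes of release. The comparison culture was asynchronous HUH7 labelled without a block, and all 7 groups carried the label. The labels list 3 samples in each group, but the deposited table holds 1 pooled value per gene and group, so every value below is a single authors' value with no SD, no test and no replicate check. Whether a stated time is the start or the end of the pulse is not recorded in the labels.

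RNA polymerase II makes messenger RNA precursors. POLR2A is its catalytic subunit and carries the long C-terminal repeat tail, POLR2B is the second large subunit, and POLR2E, POLR2F, POLR2H, POLR2K and POLR2L are also built into polymerases I and III. At a promoter, TFIID binds first through TBP and the TAFs, TFIIA and TFIIB join it, TFIIF escorts the polymerase, TFIIE recruits TFIIH, and TFIIH opens the DNA and phosphorylates the tail. Mediator links activators to this complex through its tail, middle and head modules, with MED14 as scaffold and a detachable kinase module that holds MED12 and MED13. TAF9, TAF10 and TAF12 serve both TFIID and the coactivator SAGA, and TAF5L and TAF6L serve SAGA. In mitosis chromosomes are compact and most transcription is low, and genes are switched on again as cells divide and enter G1.

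Promoter sequences are shown for members on which the results turn. TBP and TAF10 had the highest folds at 80 minutes, and MED31 and POLR2A are highly transcribed subunits of their complexes. GTF2B is 1 of the 3 members with TATAAA. MED13L, like TAF10, stayed under its asynchronous level at all release times. Each sequence is the 250 bases before the RefSeq gene start on GRCh38.p14, written 5′ to 3′ on the strand of the gene. Capitals are on the motifs searched on both strands (the TATA box letters TATAAA, the CCAAT box, the ETS type letters GGAAGTG and CCGGAAG, the NRF1 type letters GCGCATGC and the GC box letters GGGCGG).
TBP (chr6:170554119-170554368, plus strand): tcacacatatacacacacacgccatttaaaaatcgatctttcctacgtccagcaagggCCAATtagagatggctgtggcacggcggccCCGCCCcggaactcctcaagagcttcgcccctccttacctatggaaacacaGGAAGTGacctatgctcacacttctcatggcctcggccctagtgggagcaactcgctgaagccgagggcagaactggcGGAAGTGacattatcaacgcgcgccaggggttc
TAF10 (chr11:6612217-6612466, minus strand): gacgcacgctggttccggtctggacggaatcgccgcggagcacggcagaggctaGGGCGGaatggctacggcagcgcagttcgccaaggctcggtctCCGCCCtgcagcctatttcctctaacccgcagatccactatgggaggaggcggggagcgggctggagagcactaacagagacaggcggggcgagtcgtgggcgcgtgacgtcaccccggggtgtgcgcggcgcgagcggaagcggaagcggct
MED31 (chr17:6651606-6651855, minus strand): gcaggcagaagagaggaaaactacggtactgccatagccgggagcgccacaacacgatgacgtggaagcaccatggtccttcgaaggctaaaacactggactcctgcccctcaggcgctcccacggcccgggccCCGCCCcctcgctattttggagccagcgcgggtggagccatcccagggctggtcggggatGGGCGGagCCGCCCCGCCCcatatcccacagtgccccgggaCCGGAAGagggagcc
POLR2A (chr17:7484116-7484365, plus strand): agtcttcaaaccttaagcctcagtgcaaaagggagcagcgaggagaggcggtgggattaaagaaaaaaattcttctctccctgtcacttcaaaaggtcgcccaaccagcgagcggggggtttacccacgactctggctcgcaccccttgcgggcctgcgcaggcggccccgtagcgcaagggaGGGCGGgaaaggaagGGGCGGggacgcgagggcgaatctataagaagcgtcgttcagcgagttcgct
GTF2B (chr1:88891568-88891817, minus strand): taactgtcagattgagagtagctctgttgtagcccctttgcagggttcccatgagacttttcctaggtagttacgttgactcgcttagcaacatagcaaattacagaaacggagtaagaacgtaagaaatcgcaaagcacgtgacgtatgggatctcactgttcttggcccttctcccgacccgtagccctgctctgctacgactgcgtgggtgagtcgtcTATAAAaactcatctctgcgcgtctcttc
MED13L (chr12:116277694-116277943, minus strand): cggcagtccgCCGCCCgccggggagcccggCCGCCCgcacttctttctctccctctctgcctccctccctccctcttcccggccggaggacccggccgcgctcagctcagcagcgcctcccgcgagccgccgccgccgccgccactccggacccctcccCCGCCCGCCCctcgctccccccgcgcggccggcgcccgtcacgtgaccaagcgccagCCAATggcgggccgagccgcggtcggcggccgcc
The printed TBP sequence holds 1 CCAAT, 2 GGAAGTG and 1 GGGCGG, and that of TAF10 holds 2 GGGCGG and none of the other motifs. MED31 has 1 CCGGAAG and 4 GGGCGG, POLR2A has 2 GGGCGG, GTF2B has 1 TATAAA close to its start and no other motif of the list, and MED13L has 1 CCAAT and 4 GGGCGG.

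Motifs were counted in RefSeq windows running from 250 bases before to 50 bases after the start, which were found for 59 of the 78 members. The ETS type motif CCGGAAG was in 22 of the 59 (37.3%), against 15.4% of the 14134 windows of protein-coding genes kept and 10.7% of all 27305 windows. The related GGAAGTG, which shares the letters GGAAG with it so that 1 stretch can hold both, was in 13 members (22.03%), against 13.5% of protein-coding and 11.5% of all windows. TATAAA was in 3 members (5.08%), GTF2B, MED7 and MED16, against 8.07% of protein-coding and 11.95% of all windows. CCAAT was in 27.1% of members, against 36.4% of protein-coding and 35.7% of all windows, GGGCGG in 57.6% against 62.0% and 44.6%, and the NRF1 type GCGCATGC in 5.08% against 4.56% and 3.27%. These are matches of letters and not shown sites of binding.

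The 8 liver markers used for the line (ALB, AFP, APOA1, APOB, TF, FGB, SERPINA1 and HNF4A) were each between 288 and 4016 FPKM in the asynchronous culture, and 5 markers of blood, stroma and endothelium were between 0.65 and 35.9. Low values times the span of a transcript with its introns had 1 most frequent value in each column, taken as 1 step. At 0 minutes 153 of 644 low transcripts lay at 1 step, 26 at 2 and 11 at 3, and most lay at none of these. Step sizes gave depths relative to 0 minutes of 1.15 at 40, 1.49 at 80, 1.53 at 105, 1.75 at 165 and 1.66 at 300 minutes. The depth of the asynchronous culture was 1.87. If a step is 1 read, the members rested on at least 27.8 reads, the count for TAF10 at 0 minutes, a counting error of 19.0%. For TBP at 0 minutes it came to 1022 reads and 3.13%. Counting intervals at 95% are given below on that basis. They cover counting alone, and captured fragments are not independent molecules. Folds are ratios of FPKM + 1, which understate those of low genes, and log2 values are given for medians. The median gene itself had a log2 fold of −0.14 for 0 minutes against the asynchronous culture and of 0.31 for 80 against 0 minutes, so medians of a class are given relative to all genes kept. The members were higher in level than most genes, with a median of 158 FPKM at 0 minutes against 40.1 for all genes kept. The part of level in the contrasts with all genes was not tested. Both all-gene medians depend on the scale: they became 0.012 and −0.070 after quantile normalization and 0.19 and −0.064 after scaling the columns to equal medians. All FPKM of a column summed to 6241550 at 0 minutes, 7603750 at 40, 10424200 at 80 and 9058160 at 300 minutes, and 8799100 in the asynchronous culture. The columns thus do not share a sum, and the part of this in the folds was not tested. Levels are read here as relative to other captured RNA, although the total used is not stated. A culture with fewer transcribing cells and one with less new RNA per cell cannot be told apart.

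At 0 minutes, at or close to the block, most of these genes were below the asynchronous culture without being far below it. None of the 78 was at least 2-fold higher, where 14.1% of all genes were, and 10 were at least 2-fold lower, where 19.0% of all genes were. The 10 were POLR2H, GTF2H2 with its copies GTF2H2C and GTF2H2C_2, TAF3, TAF5L, TAF10, MED11, MED13L and MED22. GTF2H2 and its copies are not separate observations, and without copies and paralogs 8 of 69 were lower. The median member was −0.43 on the log2 scale, −0.29 relative to all genes. By class the relative medians were −0.20 for the polymerase, −0.47 for the general factors, −0.31 for TFIID and −0.25 for Mediator. After quantile normalization all 4 lay above 0, at 0.27 for the polymerase, 0.013 for the general factors, 0.13 for TFIID and 0.18 for Mediator, and 4 members were then at least 2-fold higher and 1 lower. Of the 22913 genes kept, 2748 were then at least 2-fold higher and 2733 lower. With equal medians 3 members were higher and 4 lower, against 23.1% and 10.7% of all genes. Under both scalings the members' share was below that of all genes on either side. Of all genes past 2-fold, 42.7% were on the higher side as deposited, 50.1% after quantile normalization and 68.3% with equal medians.

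The gene furthest below the asynchronous culture was TAF10, at 61.9 FPKM at 0 minutes and 253 in the asynchronous culture, 4.04-fold lower, a direction it kept under both other scalings. Its ratio without pseudocount was 0.24, with a counting interval of 0.16 to 0.36. POLR2H, a small subunit shared by the 3 polymerases, had 88.4 FPKM at 0 minutes and 204 in the asynchronous culture (2.29-fold lower). TAF3, which reads trimethylated histone H3 through its PHD finger, had 50.8 and 129 FPKM in the same groups, and MED13L, a kinase module subunit, had 71.6 and 183 FPKM. The head subunit gene MED22 stood at 127 FPKM at 0 minutes and 304 in the asynchronous culture. TAF10, POLR2H, TAF3, MED13L and MED22 were lower at 0 minutes under all 3 scalings, and TAF10 alone stayed at least 2-fold lower under all of them. The copy POLR2J3 had 1177 FPKM at 0 minutes and 2173 in the asynchronous culture, and GTF2H2C 159.9 and 431 FPKM. MED11, of the Mediator head, had 107 and 230.5 FPKM (2.14-fold lower), and TAF5L, of SAGA, 198 and 443 FPKM (2.23-fold lower).

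A smaller group lay above the asynchronous culture at 0 minutes. POLR2A had 702 FPKM at 0 minutes and 495 in the asynchronous culture, 1.42-fold higher, with a counting interval of 1.37 to 1.47. POLR2E, a shared subunit, had 388 and 292 FPKM (1.33-fold), MED25, the tail subunit bound by viral and cellular activators, 119.5 and 73.1 FPKM (1.63-fold), and TAF13 377 and 297 FPKM (1.27-fold). GTF2B, the TFIIB gene, had 165 FPKM at 0 minutes and 139 in the asynchronous culture (1.19-fold). These 5 were also above 1-fold under both other scalings. The germline paralogs GTF2A1L (11.5 and 6.36 FPKM) and TAF7L (21.6 and 13.2 FPKM) and the paralog MED12L (7.10 and 5.25 FPKM) were higher at 0 minutes at levels far under the rest, and MED12L was lower after quantile normalization.

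Few members were far from their 0 minute level at 40 minutes. TAF10 was the only member at least 2-fold higher at 40 minutes than at 0, against 3.24% of all genes, and none was at least 2-fold lower, against 2.06%. TAF10 had 61.9 FPKM at 0 minutes, 196 at 40, 233 at 80, 182 at 105, 137 at 165 and 83.5 at 300 minutes, against 253 in the asynchronous culture. It stood 3.13-fold higher at 40 minutes than at 0, and its plain ratio was 3.17, with a counting interval of 2.08 to 4.82. The value at 40 minutes was already close to that of 80, and the gene was back near 83.5 FPKM at 300 minutes, well under the asynchronous culture. TAF10 lies opposite ILK in GENCODE release 29, which had 396 FPKM at 0 minutes, 463 at 40, 753 at 80, 1059 at 105, 806 at 165 and 422 at 300 minutes, against 598 in the asynchronous culture. ILK was highest at 105 minutes and TAF10 at 80. No label says whether counting used the strand, so reads of this pair may not have been kept apart.

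The next largest at 40 minutes were MED29 (539 FPKM at 40 and 348 at 0 minutes, 1.55-fold), POLR2H (137 and 88.4 FPKM, 1.54-fold), TAF13 (569 and 377 FPKM, 1.51-fold) and POLR2A (1055 and 702 FPKM, 1.50-fold). MED7, POLR2G and POLR2I were the members furthest below their 0 minute level, at 73.9, 106 and 71.3 FPKM at 40 minutes and 89.5, 127 and 79.6 FPKM at 0 minutes. For POLR2I, at 32.1 reads by the step count at 0 minutes, the ratio of 0.90 had a counting interval of 0.55 to 1.46, which spans no difference. Among the general factors the extremes were close to 1-fold, with GTF2F1 at 1.23, GTF2B at 1.22, GTF2A1L at 0.919 and GTF2H5, the smallest TFIIH subunit, at 0.912. In TFIID the lowest folds at 40 minutes were 0.993 for TAF6L and 1.02 for TAF15, and MED24, a tail subunit, had 116 FPKM at 40 and 84.8 at 0 minutes (1.36-fold). The relative class medians at 40 minutes were 0.15 for the polymerase, −0.074 for the general factors, 0.13 for TFIID and 0.10 for Mediator.

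**Figure D1:**
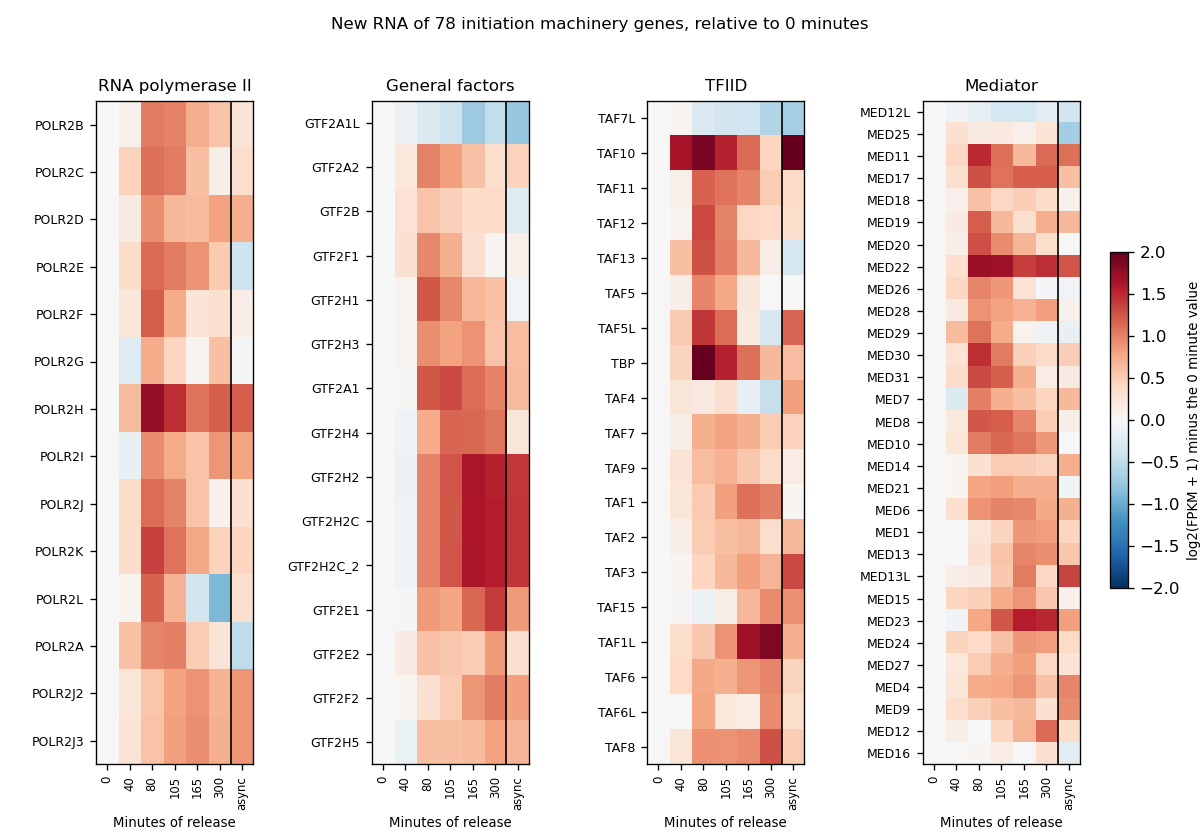
Colour gives log2(FPKM + 1) of each of the 78 genes minus its own value at 0 minutes, with columns for 0 to 300 minutes of release and, right of the line, the asynchronous culture. Colours saturate at 2 in either direction. Dark red at 80 minutes marks TBP, TAF10, POLR2H and MED22, and GTF2H2, TAF1L, TAF1, MED12 and MED23 are darkest at 165 or 300 minutes.

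As deposited, the 80 minute column set these genes apart from their 0 minute levels. At 80 minutes 27 of 78 members (none lower) were at least 2-fold higher than at 0 minutes, against 20.1% of all genes higher and 2.66% lower. The median member was 0.91 on the log2 scale, a fold of 1.87, and 0.59 relative to all genes. All 14 polymerase genes were above their 0 minute level as deposited (POLR2G, POLR2J2 and POLR2J3 were below it after quantile normalization) and 8 of them at least 2-fold, with a relative median of 0.76. The general factors had a relative median of 0.62, but their 2 of 15 at least 2-fold was under the 20.1% of all genes. Mediator had 0.47 and 11 of 30, and TFIID 0.45 and 6 of 19. The size of this difference depends on the scale. After quantile normalization 3 members, TBP, TAF10 and POLR2H, were at least 2-fold higher, against 7.1% of all genes. The relative class medians were then 0.26 for the polymerase, 0.23 for the general factors, 0.046 for TFIID and 0.056 for Mediator. With equal medians 7 were at least 2-fold higher, the same 3 with TAF5L, MED11, MED22 and MED30, against 9.27% of all genes. Under neither scaling was the members' share above that of all genes. Of all genes past 2-fold, 88.3% were higher at 80 minutes as deposited, 59.7% after quantile normalization and 60.2% with equal medians.

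**Figure D2:**
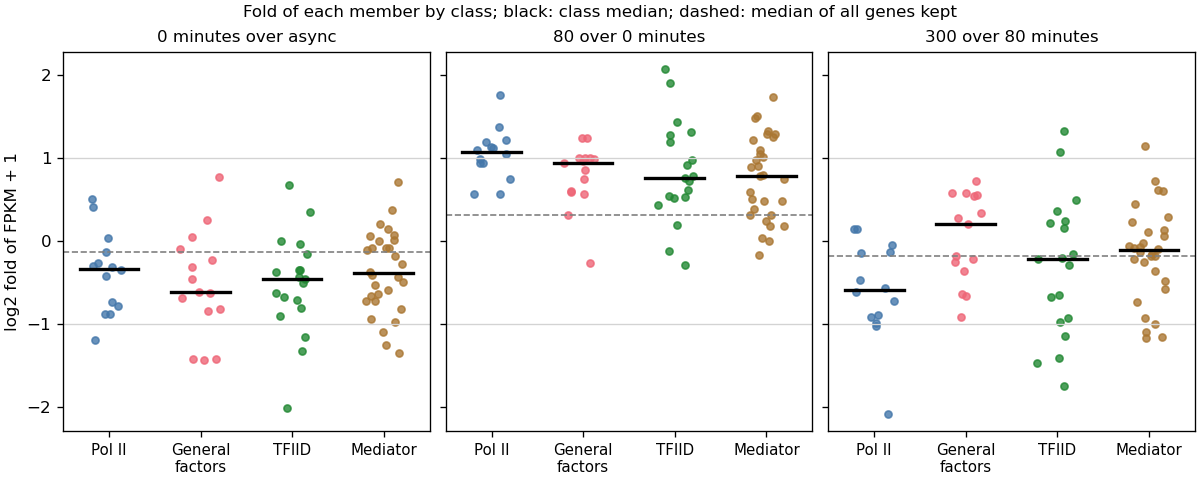
Each point is 1 gene and its height the log2 fold of FPKM + 1 for 0 minutes over the asynchronous culture, 80 over 0 minutes and 300 over 80 minutes, by class. Black bars are class medians, the dashed line is the median of all genes kept, and grey lines mark 2-fold. At 80 over 0 minutes all 14 polymerase points lie above the dashed line as deposited (3 lay below 1-fold after quantile normalization), and at 300 over 80 minutes the polymerase median is the lowest of the 4 classes as deposited.

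TBP, the TATA-binding protein that all 3 nuclear polymerases use, had the highest fold of the 78 at 80 minutes. It had 224 FPKM at 0 minutes, 304 at 40, 939.8 at 80, 654 at 105, 483 at 165 and 353 at 300 minutes, against 345 in the asynchronous culture. The 80 minute value stands well clear of all others, and that at 300 minutes is close to the asynchronous one. The fold of 80 over 0 minutes was 4.18, the plain ratio 4.20, with a counting interval of 3.93 to 4.48, and the fold of 80 over 40 minutes was 3.09. In TFIID the other members at least 2-fold higher were TAF5L, TAF10, TAF11, TAF12 and TAF13. TAF13, the histone-fold partner of TAF11, had 377 FPKM at 0 minutes, 569 at 40, 914 at 80, 761 at 105, 594 at 165 and 412 at 300 minutes, against 297 in the asynchronous culture. TAF11 had 488 FPKM at 80 and 214 at 0 minutes (2.27-fold), and TAF12, which pairs with TAF4, 212 and 84.7 FPKM (2.48-fold). TAF4 itself was at 197 FPKM at 80 and 172 at 0 minutes.

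The SAGA subunit gene TAF5L had 198 FPKM at 0 minutes, 285 at 40, 534 at 80, 432 at 105, 227 at 165 and 159 at 300 minutes, against 443 in the asynchronous culture. Its 80 minute value was 2.68-fold that of 0 minutes, and its 3 lowest values were those of 0, 165 and 300 minutes. Its TFIID counterpart TAF5 had 109 FPKM at 80 and 55.4 at 0 minutes, and TAF6L 109.5 and 63.2 FPKM. TAF1, the largest TFIID subunit, followed another course, with 69.3 FPKM at 0 minutes, 82.6 at 40, 100.4 at 80, 123 at 105, 149 at 165 and 141 at 300 minutes, against 71.1 in the asynchronous culture. As deposited, each column up to 165 minutes, its highest, was above the one before. TAF15, an RNA-binding protein of the FET family rather than a core TAF, was at 314 FPKM at 80 and 342 at 0 minutes, and it was highest at 300 minutes with 657. The other TFIID subunits lay between these courses. TAF8, the partner of TAF10, had 180.5 FPKM at 80 and 95.6 at 0 minutes (1.88-fold), and TAF6, which pairs with TAF9, 237 and 139.6 FPKM (1.69-fold, slightly below 1 after quantile normalization). TAF9 itself had 1284 and 841 FPKM, TAF2 143 and 99.5, and TAF3 68.8 and 50.8 FPKM, each of the 3 below 1-fold after quantile normalization. The germline paralog TAF7L had 17.5 FPKM at 80 and 21.6 at 0 minutes. TAF7, an intronless gene and the most highly transcribed of TFIID, had 1964 FPKM at 80 and 1196 at 0 minutes.

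**Figure D3:**
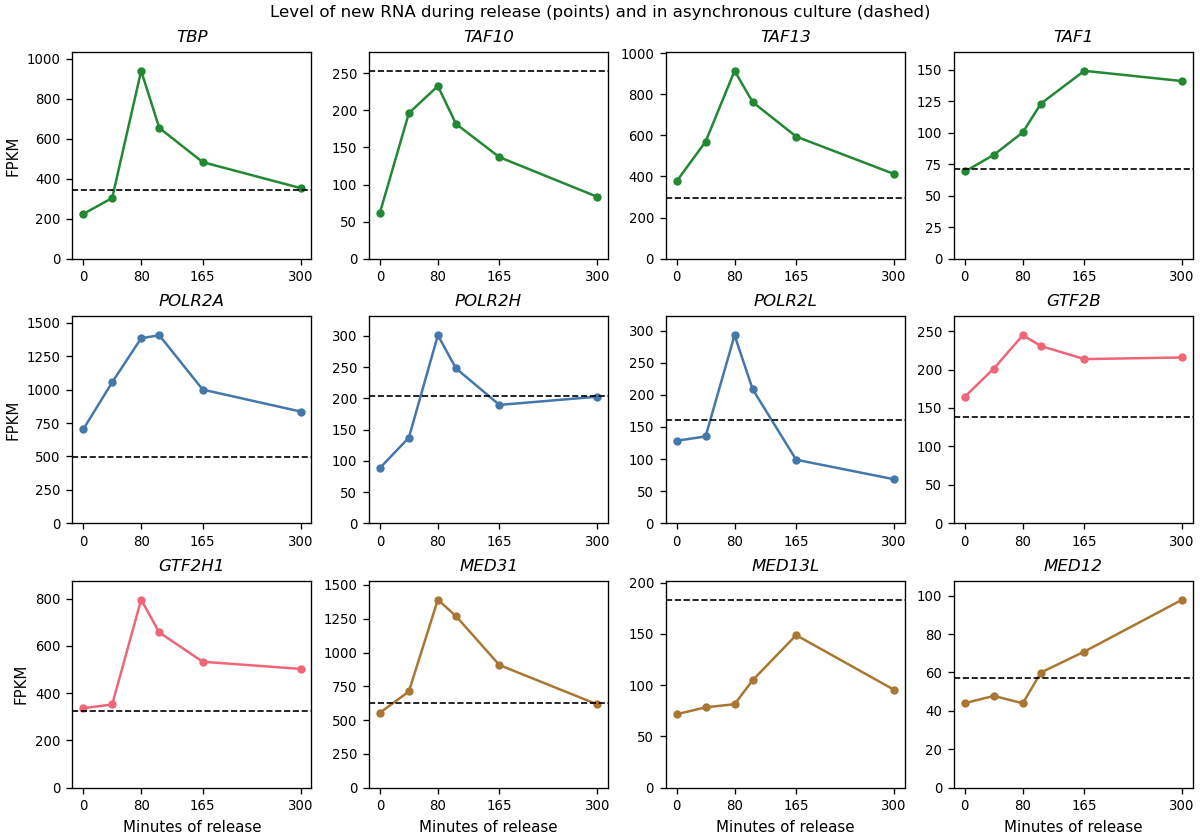
Points give FPKM of 12 members against minutes of release, on a linear axis from 0 for each gene, and the dashed line is the asynchronous level. TBP, POLR2H, POLR2L, GTF2H1 and MED31 are highest at 80 minutes, POLR2A at 105 with 80 close by, TAF1 and MED13L at 165, and MED12 at 300 minutes.

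Among the polymerase subunits, POLR2H had the highest fold at 80 minutes. It had 88.4 FPKM at 0 minutes, 137 at 40, 301 at 80, 248 at 105, 189.5 at 165 and 203 at 300 minutes, against 204 in the asynchronous culture. The 80 minute value was 3.38-fold that of 0 minutes, and its plain ratio was 3.41, with a counting interval of 2.86 to 4.06. As deposited, all 5 subunits shared with polymerases I and III were at least 2-fold higher at 80 minutes, against 20.1% of all genes, with a relative median of 0.90. Of the 7 subunits of polymerase II alone 3 were, POLR2B, POLR2C and POLR2J, with a relative median of 0.67. After quantile normalization, and also with equal medians, POLR2H was the only polymerase gene at least 2-fold higher. Beside POLR2H, the shared subunits were POLR2E (849.7 FPKM at 80 and 388 at 0 minutes), POLR2F (184 and 78.6), POLR2K (723 and 279) and POLR2L (293 and 129).

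POLR2A, the catalytic subunit gene, had 702 FPKM at 0 minutes, 1055 at 40, 1385 at 80, 1407 at 105, 1000.5 at 165 and 836 at 300 minutes, against 495 in the asynchronous culture. As deposited, every release time lay above the asynchronous culture, and the values of 80 and 105 minutes lay close together. At 80 over 0 minutes its fold was 1.97, just under the 2-fold line, with a counting interval of 1.91 to 2.03. POLR2B had 262 FPKM at 0 minutes, 279 at 40, 542 at 80, 523 at 105, 434 at 165 and 391 at 300 minutes, against 314 in the asynchronous culture, a fold of 2.06 at 80 minutes. POLR2D and POLR2I were just under 2-fold with 1.91 and 1.92, and POLR2G, the partner of POLR2D in the stalk, had 1.68 and was slightly below 1-fold after quantile normalization. The copies POLR2J2 and POLR2J3 ran with each other, at 1724 and 1742 FPKM at 80 minutes and 1169 and 1177 FPKM at 0 minutes. They are near-identical, so the share of reads that belongs to each is uncertain.

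Of the general factors, GTF2H1 and GTF2A1 were at least 2-fold higher at 80 minutes. GTF2H1, a TFIIH core subunit, had 336 FPKM at 0 minutes, 352 at 40, 795 at 80, 657 at 105, 533 at 165 and 502 at 300 minutes, against 325 in the asynchronous culture. The value of 40 minutes was close to that of 0, and that of 80 was 2.36-fold the 0 minute level. GTF2A1, the large TFIIA subunit precursor, had 308 FPKM at 80 and 130.0 at 0 minutes (2.36-fold), and its partner GTF2A2 399.8 and 201 FPKM (1.99-fold). GTF2B moved less, with 165 FPKM at 0 minutes, 201 at 40, 245 at 80, 231 at 105, 214 at 165 and 216 at 300 minutes, against 139 in the asynchronous culture. All its release values lay between 165 and 245 FPKM and above the asynchronous one, and its fold of 1.48 at 80 minutes was below 1 after quantile normalization. The TFIIF pair differed. GTF2F1 had 339 FPKM at 80 and 174 at 0 minutes, and GTF2F2 70.3 and 56.5 FPKM. For TFIIE, GTF2E1 had 148 and 81.5 FPKM at the same times and GTF2E2 131 and 86.9 FPKM. The remaining TFIIH subunits were under 2-fold. GTF2H3 had 180.5 FPKM at 80 and 94.0 at 0 minutes, GTF2H4, the regulator of the XPB helicase, 91.9 and 54.6 FPKM, and GTF2H5 62.0 and 40.6 FPKM. GTF2H2 had 156 FPKM at 0 minutes, 145 at 40, 313 at 80, 375 at 105, 485 at 165 and 457 at 300 minutes, against 420.0 in the asynchronous culture. Its 40 minute value was below that of 0 as deposited, and its highest came at 165 minutes.

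Within Mediator the modules differed in how many members passed 2-fold at 80 minutes, against 20.1% of all genes at least 2-fold higher. In the head 5 of 7 did (MED8, MED11, MED17, MED20 and MED22), with a relative median of 0.97. In the middle 4 of 9 did (MED7, MED10, MED19 and MED31), with 0.66, and at the boundary of head and tail 2 of 4 (MED29 and MED30), with 0.69. None of the 5 tail genes did (0.076), none of the 4 kinase module genes (−0.22), and the scaffold gene MED14 had 71.1 FPKM at 80 and 57.1 at 0 minutes. The head genes span from 2.18 kb (MED11) to 30.7 kb (MED17), and the tail and kinase module genes from 18.7 kb (MED25) to 350.2 kb (MED12L). In sets of 5 and 4 genes a count of 0 is not far from the share of all genes. These counts are as deposited: after quantile normalization no Mediator gene passed 2-fold, and with equal medians MED11, MED22 and MED30 did. No test separates the modules here.

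MED22 had 127 FPKM at 0 minutes, 161 at 40, 424 at 80, 415 at 105, 334 at 165 and 355 at 300 minutes, against 304 in the asynchronous culture. Its 80 minute level was 3.31-fold that of 0 minutes, and every time from 80 on was above the asynchronous culture as deposited. MED11, which pairs with MED22 in the head, had 304 FPKM at 80 and 107 at 0 minutes (2.82-fold, counting interval 2.13 to 3.79). MED31, a small middle subunit and the most abundant Mediator gene at 80 minutes, had 555 FPKM at 0 minutes, 712 at 40, 1391 at 80, 1269 at 105, 907 at 165 and 616 at 300 minutes, against 629 in the asynchronous culture. Its first and last release values were both near the asynchronous one. MED17, the head's organising subunit, had 601 FPKM at 80 and 247 at 0 minutes, and unlike MED31 was still at 566 FPKM at 300 minutes. MED17 lies opposite TAF1D, which had 1156 FPKM at 0 minutes, 2141 at 80 and 2376 at 300. MED31 lies opposite TXNDC17, which had 121, 358 and 185 FPKM at the same times. The part of these 2 neighbours in the contrast was not tested. MED1, which nuclear receptors bind, had 199.6 FPKM at 0 minutes, 199.7 at 40, 235 at 80, 271 at 105, 364 at 165 and 357 at 300 minutes, against 269.9 in the asynchronous culture. It was flat over 0 and 40 minutes and highest at 165.

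The rest of the head and middle ranged widely. In the head MED8 had 798 FPKM at 80 and 337 at 0 minutes (2.37-fold), MED20 323 and 132 FPKM (2.43-fold), MED6 336 and 180.4 FPKM (1.86-fold) and MED18 119.8 and 79.1 FPKM (1.51-fold). In the middle MED19 had 597 and 257 FPKM (2.32-fold), MED10 559 and 271 (2.06-fold), and MED26, which docks elongation factors, 814 and 414. MED4, MED9 and MED21 were lower in fold, at 1.68, 1.39 and 1.73, and all 3 were below 1 after quantile normalization, as was MED18. At the boundary of head and tail MED30 had 133 FPKM at 80 and 47.2 at 0 minutes (2.78-fold), MED29 743 and 348 (2.13-fold), MED28 1019.9 and 545 (1.87-fold) and MED27 223 and 157 (1.42-fold, below 1 after quantile normalization).

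In the kinase module, MED12 had 44.0 FPKM at 0 minutes, 47.8 at 40, 43.9 at 80, 59.9 at 105, 70.9 at 165 and 97.9 at 300 minutes, against 57.2 in the asynchronous culture. Values at 0, 40 and 80 minutes lay close together, and the highest came last. MED13 had 195 FPKM at 0, 195 at 40, 242 at 80 and 383 at 165 minutes, its highest. MED13L had 71.6 FPKM at 0 minutes, 78.4 at 40, 81.4 at 80, 105 at 105, 149 at 165 and 95.5 at 300 minutes, against 183 in the asynchronous culture. No release time reached the asynchronous level. In the tail, MED23 had 122 FPKM at 0, 209 at 80 and 363 at 165 minutes, its highest, and MED16 stayed between 206 and 258 FPKM at all release times. MED15, the activator-binding tail subunit, had 327 FPKM at 0, 455 at 80 and 606 at 165 minutes, and MED24 84.8, 111 and 155 FPKM at the same times. Both were highest at 165 minutes. MED25 stayed between 119.5 FPKM at 0 minutes and 148 at 40 minutes throughout the release.

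As deposited, 36 of the 78 genes (46.2%) had their highest release value at 80 minutes, against 23.1% of all genes kept. The same share was 11 of 14 for the polymerase, 5 of 15 for the general factors, 7 of 19 for TFIID and 13 of 30 for Mediator. Only 2 members were highest at 0 minutes (2.56%, against 16.4% of all genes), the low paralogs GTF2A1L and MED12L. At 300 minutes 11 members were highest (14.1%, against 21.1% of all genes): 4 general factors, 5 TFIID genes, 2 Mediator genes and no polymerase gene. Of the Mediator head 6 of 7 were highest at 80 minutes, and of the tail 3 of 5 at 165 minutes. This order comes from single values, and neighbouring columns can lie close, as those of 80 and 105 minutes did for POLR2A. It also rests on the deposited scale, and times of the highest value were not found again under the other scalings. At 80 minutes 73 members were above their 0 minute level as deposited and 46 after quantile normalization.

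After 80 minutes the classes went apart. At 300 minutes 3 members were at least 2-fold higher than at 80 minutes, where 8.12% of all genes were, and 9 were at least 2-fold lower, where 13.8% of all genes were. The higher ones were TAF1L, TAF15 and MED12. TAF1L is an intronless germline copy of TAF1, at 210.3 FPKM at 300 and 83.9 at 80 minutes. The lower ones were POLR2J, POLR2L, TBP, TAF5L, TAF10, TAF13, MED29, MED30 and MED31. The relative class median was −0.41 for the polymerase, 0.38 for the general factors, −0.042 for TFIID and 0.067 for Mediator. Without copies, paralogs and TAF15 it was −0.49 for the polymerase, 0.19 for the general factors, −0.25 for TFIID and 0.048 for Mediator. After quantile normalization the 3 higher genes stayed and the lower ones were MED30, POLR2L, TAF5L, TAF10 and TBP. Of all genes past 2-fold, 37.0% were higher at 300 minutes as deposited, 50.0% after quantile normalization and 38.8% with equal medians.

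POLR2L, a small shared subunit, was the furthest below its 80 minute level. It had 129 FPKM at 0 minutes, 135 at 40, 293 at 80, 209 at 105, 99.0 at 165 and 68.6 at 300 minutes, against 161 in the asynchronous culture. Its value at 300 minutes was the lowest of the 7, 4.23-fold under that of 80, and the plain ratio was 0.23, with a counting interval of 0.18 to 0.30. It overlaps CD151 on the other strand, which had 299 FPKM at 80 and 162 at 300 minutes. TAF5L was 3.35-fold lower at 300 than at 80 minutes, TAF10 2.77-fold and TBP 2.65-fold. All 5 shared polymerase subunits and all 7 of polymerase II alone were lower at 300 than at 80 minutes as deposited, although POLR2D and POLR2I lay slightly higher after quantile normalization. On the other side, GTF2F2 had 117 FPKM at 300 and 70.3 at 80 minutes (1.65-fold), GTF2E1 215 and 148 FPKM, and MED23 346 and 209 FPKM (1.65-fold). MED1 and MED13 were likewise higher at 300 minutes, at 357 and 372 FPKM, against 235 and 242 at 80 minutes. GTF2F2, GTF2E1, MED23, MED1 and MED13 kept that direction under both other scalings. The TFIIH genes GTF2H2, GTF2H2C and GTF2H2C_2 had 457, 475 and 478 FPKM at 300 minutes and 313, 318 and 321 at 80 minutes, and as copies they cannot be counted as 3 separate observations.

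By 300 minutes the group was close to the asynchronous culture. Against it, 1 member, TAF1L, was at least 2-fold higher (9.85% of all genes) and 4 were at least 2-fold lower (8.56% of all genes): TAF4, TAF5L, TAF10 and POLR2L. The same 5 passed 2-fold under both other scalings. The median member was 0.14 on the log2 scale, 0.027 relative to all genes. TAF10 had 83.5 FPKM at 300 minutes and 253 in the asynchronous culture (3.01-fold lower), TAF5L 159 and 443 (2.78-fold), and TAF4 126 and 304 (2.41-fold). TBP had 353 and 345 FPKM. Above the asynchronous culture were POLR2E (556 FPKM at 300 minutes and 292 in the asynchronous culture), POLR2A (836 and 495), TAF1 (141 and 71.1) and MED25 (145 and 73.1), each under 2-fold. GTF2H4 (116 and 64.5), MED10 (493 and 272) and GTF2B (216 and 139) were also above it, and MED13L (95.5 and 183), MED9 (236 and 369) and POLR2C (254 and 300.1) below it, all 6 in the same direction under both other scalings. The lowest general factors, GTF2A2 and GTF2F1, were within 1.08-fold of the asynchronous level. Of the 8 liver markers, 7 lay under their asynchronous level at 300 minutes, and HNF4A was above it, at 1075 FPKM against 947. The 8 summed to 4189 FPKM at 300 minutes and 16209 in the asynchronous culture.

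Gene length went with these folds. Over the 69 members left without copies and paralogs, the Spearman correlation of transcript span with the log2 fold of 80 over 0 minutes was −0.46, against −0.26 over the 17338 protein-coding genes. It was −0.60 over 29 Mediator genes and −0.03 over 12 polymerase genes. Under 10 kb 15 of 22 members were at least 2-fold higher at 80 minutes (median log2 1.10), from 10 to 40 kb 7 of 27 (0.93), and over 40 kb 5 of 20 (0.52). Of protein-coding genes in the same bins, 34.0%, 22.8% and 7.25% were at least 2-fold higher, with medians of 0.65, 0.51 and 0.14. The members' share from 10 to 40 kb, 25.9%, was near that of protein-coding genes. Thus in each bin the members' median was above that of protein-coding genes. For 300 over 80 minutes the correlation was 0.41 over the members, 0.62 over Mediator and 0.29 over protein-coding genes. Under 10 kb 17 of 22 members were highest at 80 minutes, from 10 to 40 kb 14 of 27, and over 40 kb 5 of 20, while 9 of those 20 were highest at 165 minutes. Of protein-coding genes in these bins 34.2%, 29.01% and 10.1% were highest at 80 minutes, and 19.2% of those over 40 kb at 165 minutes. Genes share these columns and are not independent, so the correlations are descriptions. The values by length are as deposited and were not found again under the other scalings.

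**Figure D4:**
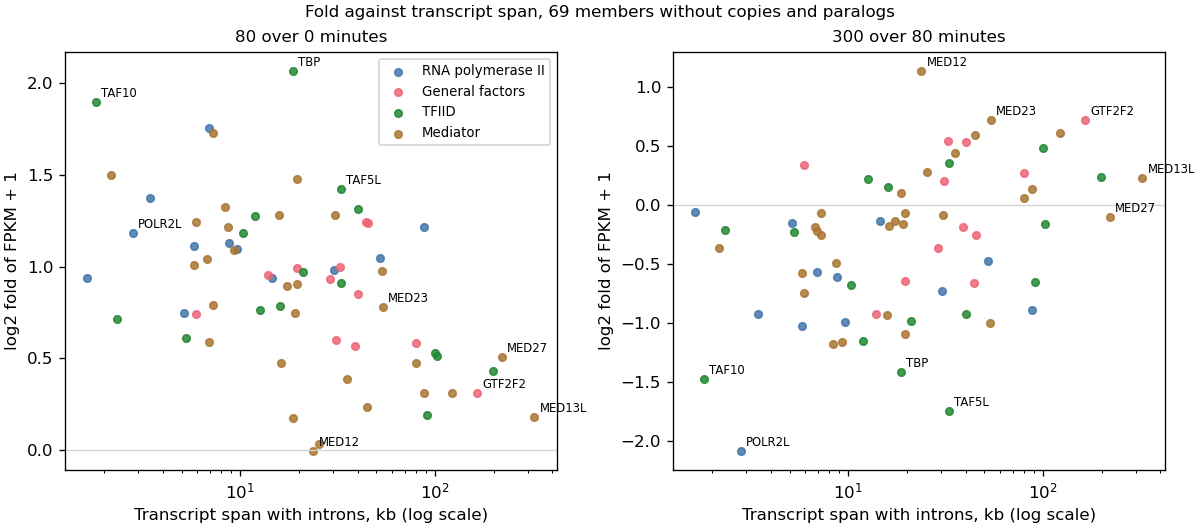
Points are 69 members, with transcript span including introns in kb on a log axis and the log2 fold of FPKM + 1 on the vertical axis, for 80 over 0 minutes (left) and 300 over 80 minutes (right). Spearman correlations were −0.46 and 0.41. TBP stands above other genes of its length on the left, and POLR2L is the lowest on the right.

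The classes are not equally long. The median span was 7.83 kb for 12 polymerase genes, 35.6 kb for 12 general factor genes, 19.8 kb for 16 TFIID genes and 19.1 kb for 29 Mediator genes, with MED13L the longest of these 69 at 324 kb. Some genes stood apart from their length. TBP spans 18.5 kb and had the highest fold at 80 minutes. POLR2F spans 87.4 kb by its longest matched transcript, the span used for each gene, and was at least 2-fold higher. MED12 and MED16 span 23.7 and 25.3 kb and differed least between 80 and 0 minutes, with folds of 0.998 and 1.02. The part of length in the difference between classes was not tested.

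Captured new RNA per length was not equal over the genes of 1 complex. Amounts of the subunits themselves were not measured. The part of span, introns and gene copies in these ratios was not tested. Per length, the 12 polymerase subunits ran from 78.6 FPKM (POLR2F) to 767 (POLR2J) at 0 minutes, a ratio of 9.75, from 153 (POLR2I) to 1657 (POLR2J) at 80 minutes, a ratio of 10.8, and from 86.6 (POLR2F) to 945 (POLR2J) in the asynchronous culture, a ratio of 10.9. TFIID without paralogs, SAGA subunits and TAF15 ran from 50.8 FPKM (TAF3) to 1196 (TAF7) at 0 minutes. Its ratio of highest to lowest was 23.6 at 0 minutes, 28.6 at 80 and 29.4 in the asynchronous culture. Mediator without MED12L spread most at 80 minutes, from 43.9 FPKM (MED12) to 1391 (MED31), a ratio of 31.7, against 12.6 at 0 minutes and 10.99 in the asynchronous culture. These ratios within a column do not depend on how columns are scaled to each other by a constant.

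The genes whose course was most like that of POLR2A, by Pearson correlation of log2(FPKM + 1) over the 7 groups among 14843 genes with at least 10 FPKM in every group, were LAMP1 (r = 0.994), POLR1H (0.993) and NICN1 (0.991). POLR1H, a polymerase I subunit gene, had 43.7 FPKM at 0 minutes, 85.5 at 40, 164 at 80, 142 at 105, 88.2 at 165 and 55.8 at 300 minutes, against 25.5 in the asynchronous culture. LAMP1, a lysosomal membrane protein gene, had 730.0 FPKM at 80 and 424 at 0 minutes. With 7 points and so many genes such values are a ranking only.

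Of 40 other genes of the pathway, 13 were at least 2-fold higher at 80 than at 0 minutes and none lower, against 20.1% and 2.66% of all genes, with a relative median of 0.33. They included TADA1, a SAGA subunit (319 FPKM at 80 and 66.5 at 0 minutes), DR1 and DRAP1, which together repress TBP at promoters (1068 and 365, and 803 and 253 FPKM), CDK7 and CCNH, the kinase and cyclin of TFIIH (384 and 163, and 448 and 157 FPKM), and GPN3, a polymerase II assembly GTPase (203 and 71.2 FPKM). MNAT1, the third part of the TFIIH kinase, was at 43.8 FPKM at 80 and 44.7 at 0 minutes.

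At 0 minutes 1 of the 40, DRAP1, was at least 2-fold higher than in the asynchronous culture and 14 were at least 2-fold lower, against 14.1% and 19.0% of all genes. DRAP1 had 253 FPKM at 0 minutes, 459 at 40, 803 at 80, 593 at 105, 336 at 165 and 144 at 300 minutes, against 72.2 in the asynchronous culture. Its 300 minute value was 5.56-fold under that of 80. CTDSPL, a phosphatase of the polymerase tail family, was at the other end with 37.2 FPKM at 0 minutes and 203 in the asynchronous culture. None of the 40 was 2-fold apart between 40 and 0 minutes, where 3.24% of all genes were higher and 2.06% lower. At 300 against 80 minutes 2 were higher and 5 lower, near the 8.12% and 13.8% of all genes. At 300 minutes against the asynchronous culture CTDSPL alone passed 2-fold, being lower, where 9.85% of all genes were higher and 8.56% lower. The Mediator kinase genes CDK8 and CDK19 had 83.3 and 94.7 FPKM at 80 minutes and 48.9 and 62.0 FPKM at 0 minutes.

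Overlapping genes limit some values. Of 77 members found in GENCODE release 29, 34 overlap another protein-coding gene, 10 on the same strand and 30 on the opposite one. GTF2H2C_2 was not found there and was not checked for overlap. Among the 44 left, GTF2H2C_2 included, 14 were at least 2-fold higher at 80 than at 0 minutes, against 20.1% of all genes. TAF9 overlaps AK6 on the same strand, which had 744 FPKM at 80 and 508 at 0 minutes, against 1284 and 841 for TAF9. POLR2I lies opposite TBCB, which had 172 FPKM at 80 and 82.3 at 0 minutes, against 153 and 79.6 for POLR2I. POLR2B lies opposite NOA1, which had 599 FPKM at 80 and 165 at 0 minutes, against 542 and 262 for POLR2B. The part of these neighbours in the members' values was not tested.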

How the data were processed

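The authors deposited FPKM values per RefSeq transcript, 48205 in number, with 1 column for each of 7 groups and none per library. Named in the submitters' processing notes are hg19, TopHat, Bowtie2 2.2.9, bedtools and bcl2fastq. No source used here says how reads were counted, whether by strand, over which total, or in what way libraries were pooled. The unlabelled and spike-in groups of the 32 samples were not analysed here, so no background stands beside these values.

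Transcripts were matched to symbols through a RefSeq table of GRCh38.p14 (47123, 97.8%), and each gene took the mean over its distinct sets of values (1 set for 66 members, several for 12). Folds were taken on log2(FPKM + 1). The design foresaw limma on libraries. With 1 value per group no test was possible, and 2-fold differences were counted beside all genes kept. Transcript spans, the longest matched for a gene, came from GENCODE release 29 for 75 members and RefSeq for 3. They were used for names, lengths and overlaps alone, since the authors' build is hg19. Low values under 1 FPKM times span gave the step as their most frequent value. At 0 minutes 153 of 644 transcripts lay at 1 step with whole spans, and 15 of 609 with exons alone. If the authors counted whole spans, FPKM here are per kilobase with introns.

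Members and gene lists were chosen with earlier results of these data known. Of the liver markers listed, 1 is not reported here. Genes named were POLR2A, POLR2B, TBP, TAF1, TAF10, GTF2B, MED1 and MED14 and the 2 highest and 2 lowest folds of each class and comparison where the higher group had at least 5 FPKM. Others were named after their values were seen, to fill out a complex. Alternatives were pseudocounts of 0.1 and 5 FPKM, no filter, a filter at 10 FPKM, quantile and median scaling, the largest set of values, and leaving out copies. A protein-coding background and leaving out overlapping members were added after seeing the data. Scripts ran in Python 3.11.15 with pandas 2.3.3, numpy 2.4.6, scipy 1.17.1 and matplotlib 3.10.9 and were tested on simulated data.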

Additional observations from a re-analysis of the deposited data

How the results depend on the processing

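Over 30 counts and class medians and 10 alternatives, 226 of 250 values stayed within the limits set (1.5-fold for a count, 0.25 log2 for a median), and 24 did not. Of the 226, 1 changed sign: the relative TFIID median for 300 minutes against the asynchronous culture was 0.021 after quantile normalization and −0.057 as deposited. Scaling moved most of them. For 0 minutes against the asynchronous culture, quantile normalization gave 4 members higher and 1 lower and equal medians 3 and 4, as against 0 and 10. In each case the members' share was below that of all genes on either side. With equal medians, for example, 23.1% of all genes were higher and 10.7% lower. All 4 relative medians, below 0 as deposited, turned positive after quantile normalization, at 0.27 for the polymerase, 0.013 for the general factors, 0.13 for TFIID and 0.18 for Mediator. With a filter at 10 FPKM the polymerase also turned positive, at 0.066, and the others moved toward 0, at −0.22 for the general factors, −0.052 for TFIID and −0.0033 for Mediator. For 80 against 0 minutes, 27 of 78 members higher became 3 with quantile normalization, 7 with equal medians and 14 of 44 without overlapping members. Of all genes, 20.1% were higher as deposited, 7.1% with quantile normalization and 9.27% with equal medians. The medians became 0.26, 0.23, 0.046 and 0.056 with quantile normalization for polymerase, general factors, TFIID and Mediator. With a filter at 10 FPKM they were 0.57, 0.44, 0.26 and 0.29, lower than as deposited but within the limit. For 40 against 0 minutes, 0 of 44 remained higher without overlapping members, since TAF10 overlaps ILK. For 300 against 80 minutes, 3 of 78 higher became 1 of 69 without copies and paralogs. The 9 of 78 lower became 5 of 78 with quantile normalization and 5 of 44 without overlapping members. For 300 minutes against the asynchronous culture, 1 of 78 higher became 0 of 69 without copies and paralogs. The 4 of 78 lower became 2 of 44 without overlapping members. The limit compared counts and not shares, so leaving genes out can move a count while the share stays near. The cause of the moves under scaling was not tested. Leaving out 1 replicate at a time was not run, as the table has no column per library. No paired analysis was possible because the columns carry no replicate letter. Depth limits short genes most, as the 19.0% counting error of TAF10 at 0 minutes shows.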
